A study of Mus musculus with 6 samples.

Results

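The genes described here are 10 members of the NRF2 antioxidant pathway (Nfe2l2, Keap1, Nqo1, Gclc, Gclm, Txnrd1, Srxn1, Gsr, G6pdx and Prdx1), chosen by symbol from the 24422 genes of the count tables and measured by poly-A RNA sequencing of whole mouse kidney at postnatal day 60. All 10 were listed and all 10 had enough counts to be tested, among 15171 genes tested. The control group held 3 wild-type C57BL/6 kidneys. The second group held 3 kidneys labelled TfR1KO;KspCre (genotype Tfr1f/f;KspCre, same strain), in which a Cre recombinase driven by the Ksp-cadherin promoter, active mainly in the distal nephron and collecting duct, removes loxP-flanked exons of the transferrin receptor gene Tfrc. Both groups were fed a diet with 220 ppm iron, and the label of the controls says wild type without stating whether they carried the floxed allele. The 3 TfR1KO;KspCre libraries are called knockout libraries, and each library came from kidney tissue in which cells with and without the Cre were mixed. The study counts its RNA sequencing in mice per model, while the labels of these libraries name no animal, and p-values measure the spread between these libraries.

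NRF2, the transcription factor encoded by Nfe2l2, is held low by Keap1, an adaptor that carries NRF2 to a ubiquitin ligase. Oxidants and electrophiles modify Keap1, NRF2 then accumulates, and with a small MAF partner it binds antioxidant response elements and raises enzymes that make glutathione, regenerate NADPH, reduce thioredoxin and remove quinones and peroxides. Because this control acts on the protein, the Nfe2l2 transcript is not a measure of NRF2 activity. In the kidney the pathway is best known from the proximal tubule, which has a heavy oxidative load.

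The core of the antioxidant response element, TGACNNNGC, was searched on both strands of RefSeq promoters (mouse build GRCm38.p6, from 250 bases before to 50 bases after each annotated start), since this is the sequence through which NRF2 acts. It was present in 4071 of 32851 promoters, or 12.4%, and in 6 of the 10 promoters listed for 8 of the members. Txnrd1 has 3 of these promoters and holds a core in 1. Gclc and Gsr were not matched in the promoter table. The promoters of Keap1 and Nqo1 did not hold these letters within the window. The 29-base windows are shown with the 9-base core in capitals, 5′ to 3′ on the strand named.
Gclm, chr3:122245413-122245441, minus strand, core from 134 bases before the start: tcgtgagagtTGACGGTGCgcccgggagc
Prdx1, chr4:116685456-116685484, minus strand, core from 133 bases before the start: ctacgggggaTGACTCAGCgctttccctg
Nfe2l2, chr2:75704885-75704913, minus strand, core from 240 bases before the start: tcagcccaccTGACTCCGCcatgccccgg
Txnrd1, chr10:82859104-82859132, minus strand, core from 92 bases before the start: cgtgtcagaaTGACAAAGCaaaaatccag
G6pdx, chrX:74428919-74428947, plus strand, core from 57 bases before the start: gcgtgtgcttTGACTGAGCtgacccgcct
Srxn1, chr2:152105542-152105570, minus strand, core from base 29 after the start: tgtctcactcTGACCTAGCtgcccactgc
The related AP-1 site, TGAGTCA, was in 1709 promoters, or 5.2%, and in those of Srxn1 and Prdx1. In Prdx1 its letters, read on the opposite strand, overlap the core shown in capitals. A match is a description of the letters and no measurement of binding. Both genes called between the genotypes, Gclm and Nfe2l2, hold a core, as do 4 members that were not called.

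Of the 10 members, 1 was called higher in the knockout libraries (Nfe2l2) and 1 was called lower (Gclm). A gene is called here when its p from edgeR's quasi-likelihood test, adjusted by Benjamini-Hochberg over all genes tested, is under 0.05. By this rule 17.2% of all tested genes were called, 10.6% higher and 6.64% lower. The share of members called in each direction is therefore close to that of genes in general. The log2 fold change, knockout over control, was above 0 for 6 members and below 0 for 4, with a median of 0.12 beside 0.02 over all genes tested. The knockout libraries lay wholly above the controls for 3 members (Nfe2l2, Keap1 and G6pdx) and wholly below for 2 (Gclm and Prdx1), against 23.8% and 22.2% of all genes. The 2 calls were lost on leaving out any 1 control, or knockout 2 or 3, each of which left 0 members and 0 to 73 of all genes called, and 2 to 3 members with an unadjusted p under 0.05 in the same edgeR test, beside 27.4% to 31.0% of all genes.

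**Figure D1:**
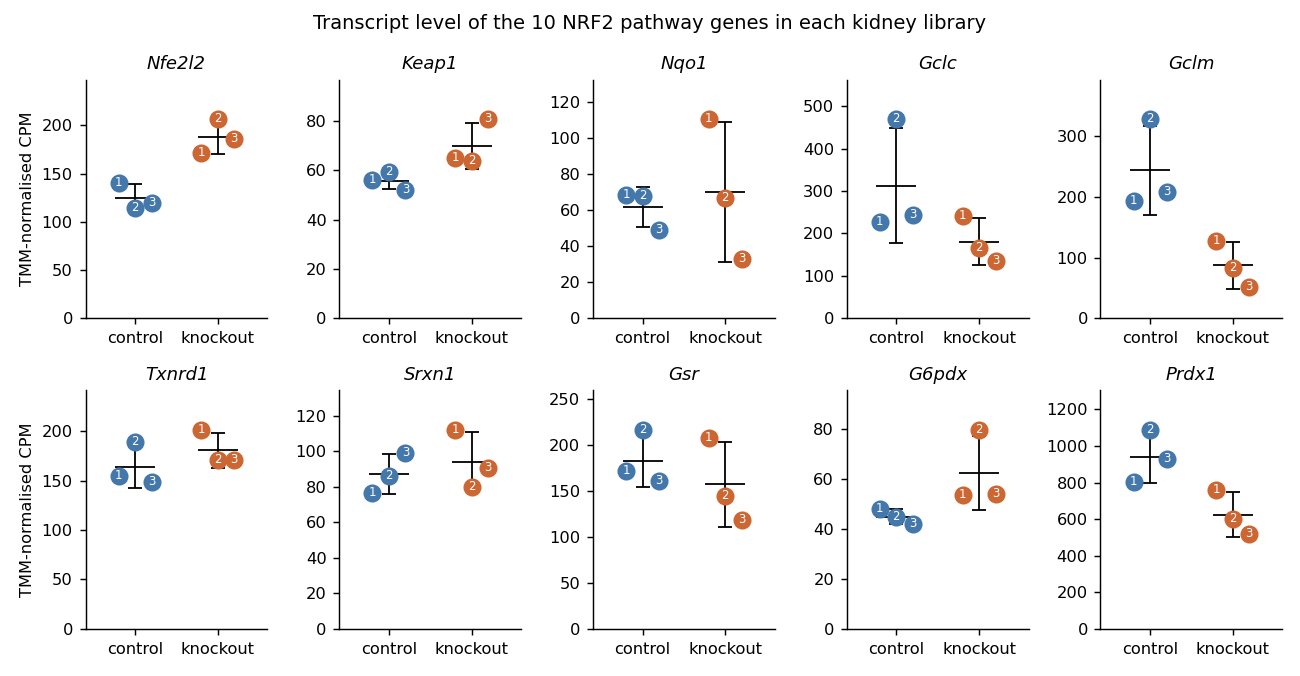
TMM-normalised counts per 1000000 counts, CPM (vertical axes, from 0) of the 10 members in each of the 3 control (blue) and 3 knockout (orange) libraries, numbered by replicate, with a bar at the mean and whiskers of 1 SD. The groups are apart for Nfe2l2, Keap1, Gclm, G6pdx and Prdx1, and for Nqo1 the knockout libraries span 32.8 to 110.2.

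The libraries differed in ways that bear on these genes. Total counts ran from 11501053 in knockout 3 to 21001341 in control 1, and knockout 3 had 2.59% of its counts on the ribosomal RNA gene Rn45s against 0.506% to 0.745% in the others. On the first principal component of all genes, knockout 1 lay at 9.67, knockouts 2 and 3 at 88.6 and 82.1, and the controls between -72.6 and -53.2. In control 2 the level of Xist, the transcript of the inactive X, was 3.06 CPM (TMM-normalised counts per 1000000 counts of a library). The Y-linked gene Ddx3y was at 85.3 CPM there. In the other 5 libraries Xist was at 760.4 to 1431 CPM and Ddx3y at 0.0491 to 0.306 CPM. No knockout library had the pattern of control 2, so the groups were not balanced for it. Tfrc, the targeted gene, was at 138, 168 and 62.0 CPM in the controls and 214, 86.0 and 40.6 in the knockouts, so knockout 1 lay above all controls. Gene counts also take reads from exons outside the deleted part and from cells without the Cre, so Tfrc gives no check of the labels here (log2 fold change -0.11, SE 0.62, edgeR adjusted p = 0.911). Cdh16, whose promoter drives the Cre, did not differ beyond its spread (-0.26, SE 0.29, edgeR adjusted p = 0.545).

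Transcript levels of cell type markers also differed between the genotypes. Over all genes tested, 10.6% were called higher and 6.64% lower. Proximal tubule markers were called lower for 9 of 12 genes (median log2 fold change -2.12), and their summed level was 16220.3 to 25097 CPM in the controls, 8965 in knockout 1, and 3414 and 2745 in knockouts 2 and 3. Macrophage markers were called higher for 8 of the 9 tested, with sums of 189.8 to 217 CPM in the controls and 604 to 2193 in the knockouts. Fibroblast markers were called higher for 4 of 7, with sums of 319 to 579 against 998 to 4047 CPM, with a median of 3.13. On leaving out any 1 control, or knockout 2 or 3, all proximal tubule and fibroblast calls were lost. So were the macrophage calls, except without knockout 2, where 6 remained. Those fits called 0 to 73 of all genes. At an unadjusted p under 0.05 in edgeR they held 9 to 11 proximal tubule, 8 macrophage and 6 to 7 fibroblast markers, beside 27.4% to 31.0% of all genes. Thick ascending limb markers, of a segment within the distal nephron, were called for 0 of 7 in either direction by edgeR (1 at an unadjusted p under 0.05, and 1 called lower by the DESeq2 Wald test), with a median of -1.34 and sums of 5563 to 12014 against 958 to 7174 CPM. Without knockout 1, 5 of these 7 were called lower, with a median of -2.57, in a fit that called 34.4% of all genes. The part of these shifts in the values of the 10 members and of the lists of related genes was not tested, and in whole tissue, fewer cells of a type and less RNA per cell cannot be told apart.

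**Figure D2:**
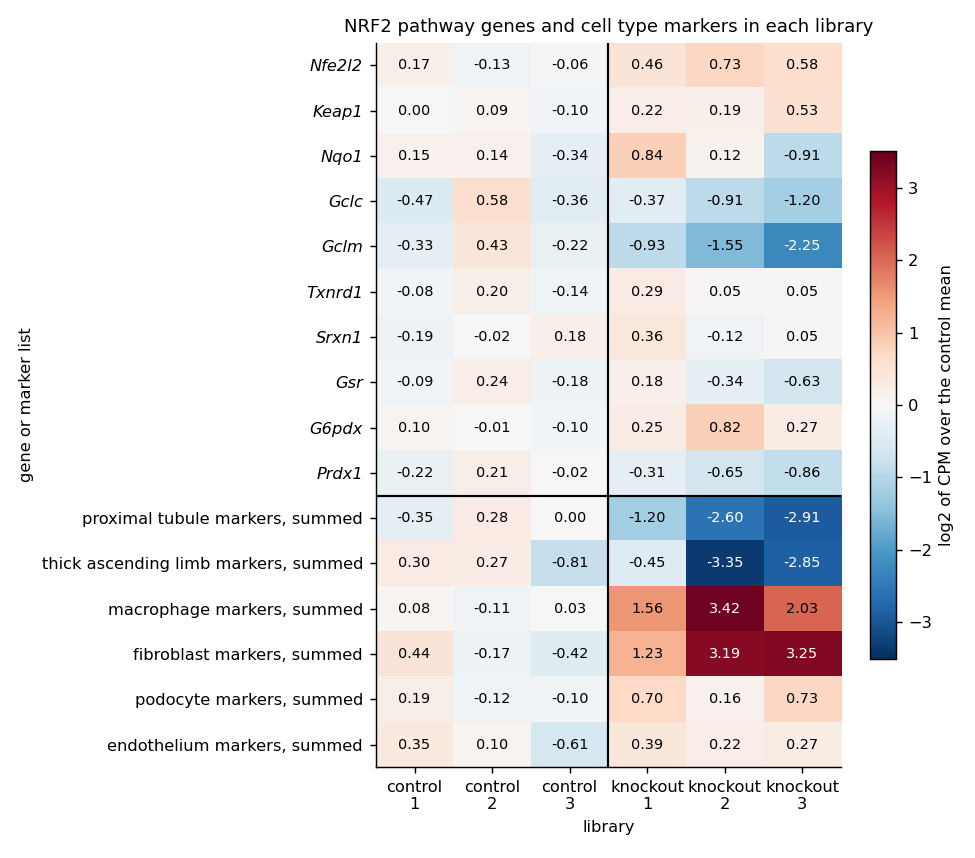
Log2 of the level in each library (columns) over the control mean, for the 10 members and for the summed markers of 6 cell types (rows), with the value printed in each cell and colour from blue (lower) to red (higher). Gclm reached -2.25 and the proximal tubule markers -2.91 in knockout 3, while Nfe2l2 lay between 0.46 and 0.73 in the 3 knockouts.

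Nfe2l2 (ENSMUSG00000015839; mm9 chromosome 2, 75513570 to 75542698, minus strand) was higher in the knockout libraries. Its level was 140.1, 114 and 119.7 CPM in controls 1 to 3, and 171, 206 and 186 CPM in knockouts 1 to 3. The groups did not overlap, and knockout 2 was the highest. The means were 125 ± 13.7 and 188 ± 17.6 CPM (SD, n = 3 each). The difference on the log2 scale was 0.59 (SE 0.15, edgeR adjusted p = 0.0444). The call was also lost with no filter on low counts (0.58, edgeR adjusted p = 0.0582). Without control 2, the log2 fold change was 0.52 (edgeR adjusted p = 0.149).

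Keap1 (ENSMUSG00000003308; mm9 chromosome 9, 21034174 to 21043776, minus strand), the NRF2 repressor, was not called. Its level was 56.0, 59.3 and 52.2 CPM in the controls and 65.1, 63.7 and 80.6 CPM in the knockouts. Each knockout library was above each control, by a margin smaller than the range within either group. The means were 55.8 ± 3.54 and 69.8 ± 9.37 CPM (SD, n = 3 each), with a log2 difference of 0.32 (SE 0.14, edgeR adjusted p = 0.141). The annotation places a long noncoding RNA, Gm16754, on the opposite strand over Keap1, and the strand setting of the counting was not given in the sources used here. The ratio of Nfe2l2 to Keap1 counts within a library was 2.5, 1.92 and 2.29 in the controls and 2.63, 3.24 and 2.31 in the knockouts. These ranges overlapped (exact permutation test, two-sided, p = 0.2, where 3 against 3 libraries cannot give less than 0.1).

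Glutathione is made by glutamate-cysteine ligase, whose catalytic subunit is encoded by Gclc and whose modifier subunit, which raises the activity of the enzyme, is encoded by Gclm. Gclm (ENSMUSG00000028124; mm9 chromosome 3, 121948475 to 121972902, plus strand) was lower in the knockout libraries. Its level was 194, 328 and 209 CPM in the controls, and 128, 83.3 and 51.1 CPM in the knockouts. Even the highest knockout library, knockout 1, was below the lowest control. The means were 244 ± 73.0 and 87.4 ± 38.5 CPM (SD, n = 3 each). The difference on the log2 scale was -1.48 (SE 0.37, edgeR adjusted p = 0.0414). Without control 2, where Gclm was highest, the log2 fold change was -1.22 (edgeR adjusted p = 0.128), and without knockout 1 it was -1.87 (edgeR adjusted p = 0.00887). A long noncoding RNA, Gm17494, lies on the opposite strand over Gclm.

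Gclc (ENSMUSG00000032350; mm9 chromosome 9, 77602342 to 77642292, plus strand) was not called. Its level was 226, 469 and 244 CPM in the controls and 242, 166 and 136 CPM in the knockouts, so that knockout 1 lay within the range of the controls. Control 2 stood far above the other controls, as it did for Gclm. The means were 313 ± 135 and 181 ± 54.9 CPM (SD, n = 3 each), with a log2 difference of -0.79 (SE 0.35, edgeR adjusted p = 0.147). Without control 2 this was -0.39 (edgeR adjusted p = 0.395).

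Both subunits can be set against each other within a library, which removes the scaling between libraries. The ratio of Gclm to Gclc counts was 0.860, 0.699 and 0.857 in the controls and 0.527, 0.503 and 0.375 in the knockouts. All 3 knockout ratios lay below all 3 control ratios, with means of 0.805 ± 0.0920 and 0.469 ± 0.0817 (SD, n = 3 each, exact permutation test, two-sided, p = 0.1, the smallest that 3 against 3 libraries allow). Every knockout library thus held less Gclm per Gclc count than every control, for a pair of genes chosen after their values were seen. The pair can also be set against the proximal tubule markers, which were lower in the same libraries. The ratio of Gclm counts to those of a marker was higher in all knockouts than in all controls for 6 of the 12 markers (Lrp2, Cubn, Slc34a1, Slc22a6, Slc27a2 and Acsm2), overlapped between the groups for 6 and was lower for 0. For Gclc it was higher for 8 of the 12 and overlapped for 4. All 12 markers had a log2 fold change below 0 (median -2.12), so a gene that fell less tends to give higher ratios. The share of all genes with such ratios was not counted, so these counts say nothing particular to Gclm or Gclc. Gclm was therefore lower per count of the whole library, while against the proximal tubule markers the groups were apart or overlapping depending on the marker.

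Glutathione reductase, encoded by Gsr (ENSMUSG00000031584; mm9 chromosome 8, 34762995 to 34808635, plus strand), returns oxidized glutathione to its reduced form. Gsr was at 172, 216 and 161 CPM in the controls and 208, 145 and 118 CPM in the knockouts. The groups overlapped through knockout 1, and the log2 fold change was -0.22 (SE 0.24, edgeR adjusted p = 0.534). It was -0.48 without knockout 1 (edgeR adjusted p = 0.097) and -0.05 without knockout 3 (edgeR adjusted p = 0.91). When libraries were scaled by their total alone Gsr was at 0.05, below the all-gene median of 0.29 under that scaling. G6pdx (ENSMUSG00000031400; mm9 chromosome X, 71654822 to 71674533, minus strand) encodes glucose-6-phosphate dehydrogenase, which supplies the NADPH that glutathione and thioredoxin reductases use. G6pdx was at 48.2, 44.8 and 42.1 CPM in the controls and 53.7, 79.6 and 54.2 CPM in the knockouts. No knockout library was as low as a control, but knockout 2 alone lay well above the rest. The log2 fold change was 0.47 (SE 0.19, edgeR adjusted p = 0.110), and it was 0.26 without knockout 2 (edgeR adjusted p = 0.230). G6pdx overlaps Ikbkg on the opposite strand, and Ikbkg itself was at 68.1 to 71.9 CPM in the controls and 68.9 to 71.5 CPM in the knockouts.

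Thioredoxin reductase 1, encoded by Txnrd1 (ENSMUSG00000020250; mm9 chromosome 10, 82296696 to 82360469, plus strand), keeps cytosolic thioredoxin reduced. Txnrd1 was at 155, 189 and 149 CPM in the controls and 201, 170.4 and 170.5 CPM in the knockouts. The groups overlapped, with a log2 difference of 0.13 (SE 0.16, edgeR adjusted p = 0.568). The ratio of Txnrd1 to Gsr counts was 0.901, 0.877 and 0.922 in the controls and 0.964, 1.17 and 1.44 in the knockouts. These ratios did not overlap (exact permutation test, two-sided, p = 0.1, the smallest possible), and this pair too was chosen after the values were seen.

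Prdx1 (ENSMUSG00000028691; mm9 chromosome 4, 116358149 to 116373427, plus strand) encodes peroxiredoxin 1, which removes peroxides with electrons from thioredoxin. It was at 805, 1086 and 926 CPM in the controls and 758, 598 and 518 CPM in the knockouts. All knockout libraries lay below all controls, with knockout 1 close to control 1. The means were 939 ± 141 and 625 ± 122 CPM (SD, n = 3 each), with a log2 difference of -0.59 (SE 0.24) that was not called (edgeR adjusted p = 0.121). It was called by the Wald test of DESeq2 (-0.61, adjusted p = 0.0240), which called 32.3% of all genes with an adjusted p, and by edgeR without knockout 1 (-0.76, adjusted p = 0.0328), a fit that called 34.4% of all genes. Srxn1 (ENSMUSG00000032802; mm9 chromosome 2, 151931252 to 151937112, plus strand) encodes sulfiredoxin, which repairs overoxidized peroxiredoxins. Srxn1 was at 76.5, 86.1 and 99.1 CPM in the controls and 112, 80.0 and 90.5 CPM in the knockouts, with overlapping groups and a log2 difference of 0.11 (SE 0.18, edgeR adjusted p = 0.666).

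Nqo1 (ENSMUSG00000003849; mm9 chromosome 8, 109912125 to 109927106, minus strand) encodes a quinone reductase that is widely read as a marker of NRF2 activity. Nqo1 was at 68.2, 67.9 and 48.7 CPM in the controls and 110.2, 66.8 and 32.8 CPM in the knockouts. The knockout group held both the highest and the lowest of the 6 libraries. Nqo1 was not called, at 0.19 on the log2 scale (SE 0.41, edgeR adjusted p = 0.762), and this value turned to -0.31 without knockout 1. The coefficient of variation of Nqo1 was 55.5% among knockouts, the largest of the 10 members in either group, and 18.1% among controls. That of Nfe2l2 was 9.38% among knockouts, the smallest of the members in that group.

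**Figure D3:**
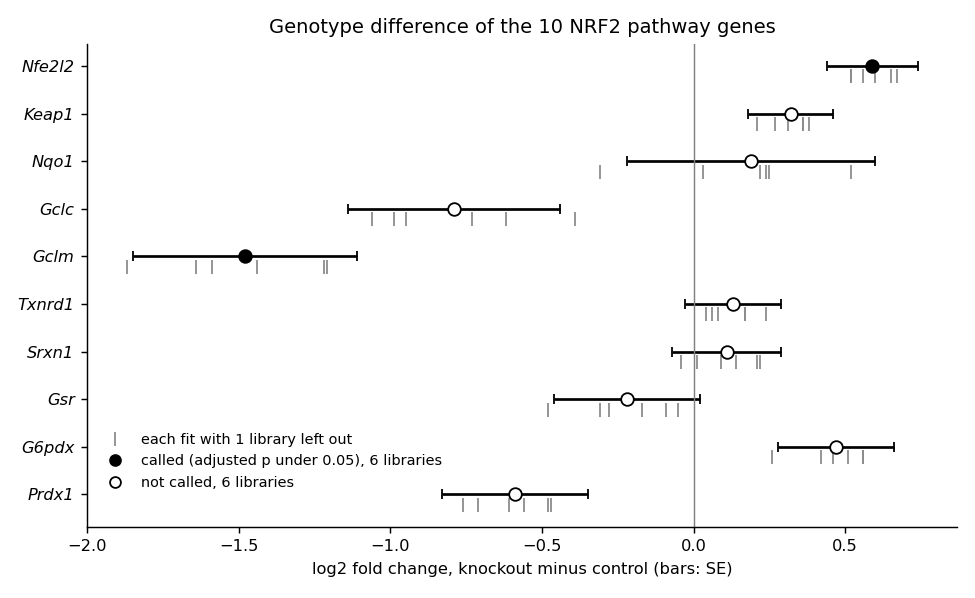
Log2 fold change of each member, knockout over control (horizontal axis), with its SE as a bar, filled where called and open where not, and a grey tick for each of the 6 fits with 1 library left out. Gclm stayed between -1.87 and -1.21 and Nfe2l2 between 0.52 and 0.67, whereas the ticks of Nqo1 and Srxn1 cross 0.

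Knockout 1 was the highest of the knockout libraries for 7 members (Nqo1, Gclc, Gclm, Txnrd1, Srxn1, Gsr and Prdx1), and knockout 3 was the lowest for 5 (Nqo1, Gclc, Gclm, Gsr and Prdx1). Control 2, the library with the high Ddx3y level, was the highest of the controls for 6 (Keap1, Gclc, Gclm, Txnrd1, Gsr and Prdx1). Other members did otherwise: Nfe2l2 was lowest of its group in control 2 and in knockout 1, G6pdx was lowest of the knockouts in knockout 1, and Keap1 was highest of them in knockout 3. Without knockout 1, 3 members were called (Nfe2l2, Gclm and Prdx1) where that fit called 34.4% of all genes, and the median of the members was -0.18 in place of 0.12. With libraries scaled by total counts alone, 4 members were called, Nfe2l2, Keap1 and G6pdx higher and Gclm lower, but that scaling moved the median of all genes from 0.02 to 0.29 and called 24.0% of them. The median of the members under that scaling was 0.39, to be read beside the 0.29 of all genes.

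Levels can be compared between genes only per length, here as CPM per kilobase of the longest protein-coding transcript in the mm9 annotation. Among controls Prdx1 was the highest at 409 ± 61.3 CPM per kilobase, more than any other member in any control library. Gclc followed at 91.4 ± 39.5 and Gsr at 68.5 ± 10.8, and their ranges overlapped. Nfe2l2 and Gclm were level at 50.3 ± 5.55 and 50.3 ± 15.1, ahead of Txnrd1 at 45.2 ± 6.00 and Nqo1 at 39.7 ± 7.19 CPM per kilobase. Neighbours among those 4 genes overlapped, as did Nqo1 and the next, Srxn1, while Gsr lay above Nfe2l2 in all control libraries. Srxn1 was at 31.0 ± 4.02, G6pdx at 17.0 ± 1.15 and Keap1 at 12.5 ± 0.792 CPM per kilobase, and these last ranks did not overlap each other. In the knockouts Prdx1, Gsr and Keap1 kept their ranks of 1, 3 and 10. Nfe2l2 ranked 2 of 10 at 76.0 ± 7.12, Gclc ranked 4 at 53.0 ± 16.0 and Gclm ranked 9 at 18.1 ± 7.96 CPM per kilobase, while Txnrd1, Nqo1, Srxn1 and G6pdx each stood 1 rank higher than in the controls.

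The wider pathway was described by lists of known genes. Of 37 other NRF2 targets, 35 were tested, of which 5 were called higher and 5 lower (10.6% and 6.64% over all genes), and the median was -0.21. The groups were apart with the knockouts above for 6 and below for 9. Over all genes these shares were 23.8% and 22.2%. Calls went in both directions, and all 10 were lost on leaving out any 1 control, or knockout 2 or 3 (12 to 15 of the list at an unadjusted p under 0.05 in edgeR, beside 27.4% to 31.0% of all genes), fits in which 0 to 73 of all genes were called. With libraries scaled by total counts alone the calls were 6 higher and 2 lower and the median was 0.06, beside an all-gene median of 0.29 and 24.0% of all genes called, so the list stayed below the median gene. With at least 10 counts required in every library, 33 were tested, 3 were called higher and 4 lower. Of all 13815 genes tested in that fit, 1385 were called higher and 906 lower. Of the 5 genes called higher, 4 were at 5.34 CPM or less in every control. Slc7a11 and Gsta1 passed the filter on low counts only through the knockout libraries, where they were high, so their values are a description and support nothing further. Slc7a11, the cystine importer that feeds glutathione synthesis, was at 0.249 to 0.470 CPM in the controls (5, 8 and 5 counts) and 1.23 to 5.27 CPM in the knockouts (log2 fold change 3.03, SE 0.67, edgeR adjusted p = 0.0339). Gsta1, a glutathione transferase of a family with close copies whose reads may be lost to unique mapping, was at 0.176 to 0.547 CPM in the controls (11, 3 and 3 counts) and 1.82 to 3.06 CPM in the knockouts (2.91, SE 0.54, edgeR adjusted p = 0.0296). Cbr3, a carbonyl reductase, was at 1.76 to 5.34 and 14.6 to 33.7 CPM (2.85, SE 0.49, edgeR adjusted p = 0.0284). All 3 were above every control in every knockout library. The same held for Pir, an iron-binding nuclear protein, at 1.91 ± 0.098 CPM in the controls and 6.85 ± 3.68 CPM in the knockouts (SD, n = 3 each, 1.84, SE 0.47, edgeR adjusted p = 0.0425).

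The 4 targets with the lowest log2 fold changes had control levels above those of Slc7a11, Gsta1, Cbr3 and Pir. Me1, malic enzyme 1, a cytosolic source of NADPH, was at 519 ± 222 CPM in the controls and 165 ± 33.3 CPM in the knockouts (SD, n = 3 each, log2 fold change -1.65, SE 0.33, edgeR adjusted p = 0.0313). Cat, the catalase of peroxisomes, was at 857 ± 145 and 321 ± 146 CPM (-1.42, SE 0.35, edgeR adjusted p = 0.0411). Abcc2, an exporter of organic anions and glutathione conjugates on the apical side of the proximal tubule, was at 296 ± 91.5 and 127 ± 40.2 CPM (-1.22, SE 0.33, edgeR adjusted p = 0.0478). Abcc2 is thus itself a gene of the segment in which 9 of 12 markers were called lower, and the part of that change in its level was not tested. Blvra, biliverdin reductase A, was at 66.1 to 92.0 CPM in the controls and 27.4 to 49.3 CPM in the knockouts (-0.98, SE 0.24, edgeR adjusted p = 0.0404).

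The ferritin genes, which store iron and are also NRF2 targets, were the most abundant of the list and were not called. Ftl1, the light chain, was at 2929 ± 765 and 2375 ± 277 CPM (SD, n = 3 each, log2 fold change -0.30, SE 0.32, edgeR adjusted p = 0.513). Fth1, the heavy chain, was at 3085 ± 645 and 1886 ± 627 CPM (-0.71, SE 0.36, edgeR adjusted p = 0.188). Both have many processed pseudogenes, so their counts under unique mapping are uncertain. Gstm1, a glutathione transferase, was at 609.9 ± 47.9 and 659 ± 181 CPM and was not called (0.11, SE 0.26, edgeR adjusted p = 0.776). The remaining calls, Ephx1 (0.86, edgeR adjusted p = 0.0356) and Fech (-0.73, edgeR adjusted p = 0.0458), and the uncalled heme oxygenase gene Hmox1 (0.28, edgeR adjusted p = 0.570) are named after their values were seen. Ephx1 is an epoxide hydrolase, and Fech encodes ferrochelatase, which inserts iron into heme.

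**Figure D4:**
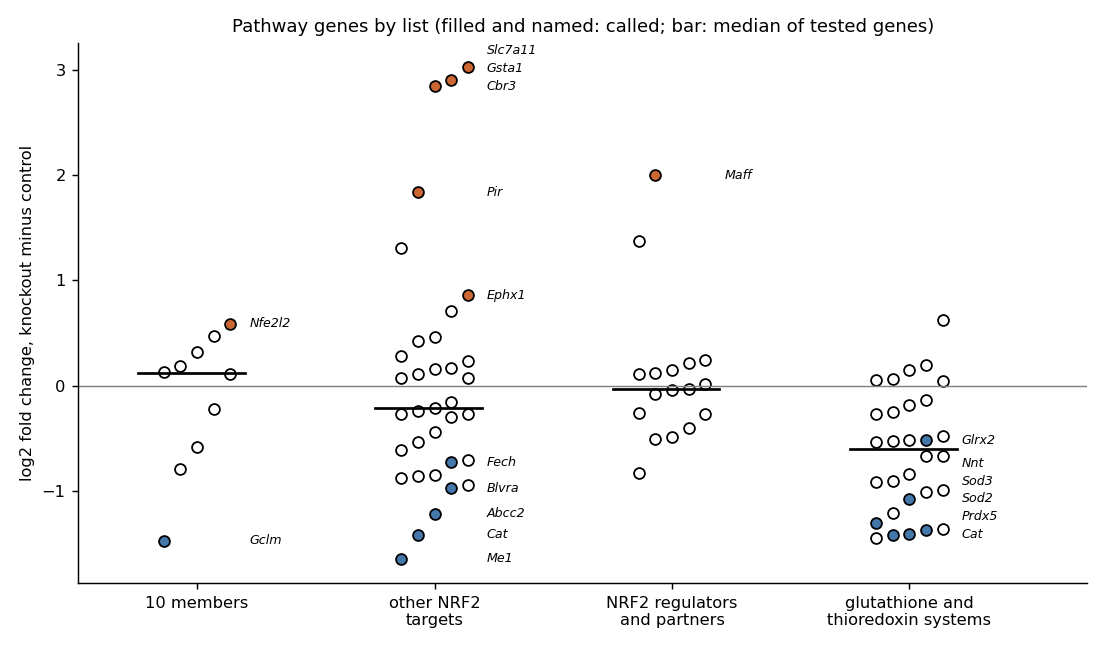
Log2 fold change, knockout over control (vertical axis), of every tested gene in the members and in 3 lists of related genes, filled and named where called (orange higher, blue lower), with a bar at the median of each list. The 35 other NRF2 targets reach from -1.65 to 3.03, and the 6 calls in the glutathione and thioredoxin systems are all lower.

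Of 17 regulators and partners of NRF2, which include the small MAF and BACH factors and the ligase subunits that act on NRF2, 1 was called higher and 0 lower (10.6% and 6.64% over all genes), with a median of -0.03. The called gene was Maff, a small MAF protein induced by stress in many tissues. Maff was at 3.98, 2.53 and 4.26 CPM in the controls and 8.93, 14.2 and 20.3 CPM in the knockouts (log2 fold change 2.00, SE 0.38, edgeR adjusted p = 0.0303). Every knockout library held more Maff than any control. This call too was lost in each of those fits, which had 2 to 5 of the 17 genes at an unadjusted p under 0.05 in edgeR, beside the same 27.4% to 31.0% of all genes. At an unadjusted p under 0.05, 6 of the 17 genes were counted beside 38.6% of all genes, and the DESeq2 Wald test called 3 of the 17 lower and 1 higher beside 32.3% of all genes.

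Of 30 further genes of the glutathione and thioredoxin systems, 0 were called higher and 6 lower (10.6% and 6.64% over all genes), where 24 of the 30 log2 fold changes were below 0 and the median was -0.60. All 6 calls were lost on leaving out any 1 control, or knockout 2 or 3 (9 to 14 of the list at an unadjusted p under 0.05 in edgeR, beside 27.4% to 31.0% of all genes, of which 0 to 73 were called), and 19 were called lower without knockout 1, where 34.4% of all genes were called. The knockout libraries lay below all controls for 17 of them and above for 0, where 22.2% and 23.8% of all genes did so. Under total-count scaling the median was -0.34 beside the all-gene median of 0.29. The proximal tubule markers were lower in the same libraries (9 of 12 called, median -2.12), and their part in the values of this list was not tested. The genes called lower were Cat, given above, and 5 others. Prdx5, a peroxiredoxin of mitochondria and peroxisomes, was at 1328 ± 203 CPM in the controls and 499 ± 245 CPM in the knockouts (SD, n = 3 each, log2 fold change -1.41, SE 0.37, edgeR adjusted p = 0.0458). Sod2, the superoxide dismutase of mitochondria, was at 386 ± 26.3 and 148 ± 76.9 CPM (-1.38, SE 0.35, edgeR adjusted p = 0.0430). Sod3, the extracellular form, was at 548 ± 86.1 and 221 ± 74.7 CPM (-1.31, SE 0.28, edgeR adjusted p = 0.0326).

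Nnt and Glrx2 were the remaining calls. Nnt, a transhydrogenase that makes mitochondrial NADPH, was at 314 ± 11.5 and 148 ± 45.9 CPM (SD, n = 3 each, log2 fold change -1.08, SE 0.24, edgeR adjusted p = 0.0346). Glrx2, a mitochondrial glutaredoxin, was at 53.2 ± 0.985 and 37.1 ± 5.30 CPM (-0.52, SE 0.14, edgeR adjusted p = 0.0478). Knockout 1 was the highest of the knockout libraries for Cat, Prdx5, Sod2, Sod3, Nnt and Glrx2, as it was for Gclm and Prdx1. The 2 most abundant genes of the list were glutathione peroxidases and were not called. Gpx3, a secreted form made in the proximal tubule, was at 28664 ± 10330.4 and 11080.1 ± 3375 CPM (-1.37, SE 0.61, edgeR adjusted p = 0.146), and Gpx1, the cytosolic form, was at 1354 ± 264 and 721 ± 285 CPM (-0.91, SE 0.34, edgeR adjusted p = 0.0955). For Gpx1 and Gpx3 each knockout library was below each control. Cat and Txn1 stand in both of the last target lists, and Sqstm1 in the target and regulator lists.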

How the data were processed

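Poly-A RNA of 6 whole mouse kidneys (3 control, 3 TfR1KO;KspCre) was sequenced as single-end reads. As the study describes it, the authors used CASAVA 1.8.2 for base calling, trimmed with Trimmomatic, aligned to mm9 with TopHat2 2.0.11, kept uniquely mapped reads and counted per gene with HTSeq. The deposited tables hold these raw counts, not normalized. Annotation and strand setting were not given in the sources used here, so overlapping and antisense genes are uncertain, and unique mapping lowers genes with close copies. Of 24422 genes, 4664 had 0 counts in all libraries. No row was left out of the library totals. Replicates were not copies of 1 library (chi-square between counts of 52.9 to 125 per degree of freedom), so each counted as 1 replicate.

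Groups and replicate numbers came from the sample titles. Genes were filtered by filterByExpr (minimum count 10, minimum total 15), scaled by TMM and tested with edgeR 4.0.16 (quasi-likelihood, package default version, no covariate) in R 4.3.3, with Benjamini-Hochberg adjustment over 15171 genes and calls at an adjusted p under 0.05. The SE is the log2 fold change over the root of F. CPM values are TMM-normalised. DESeq2 1.42.0 (35 genes without an adjusted p stay without one) and limma-voom (limma 3.58.1) were alternatives. Ratios used raw counts of a library and an exact permutation test. The pairing of replicate numbers was checked by the correlation of deviations from group means.

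The members and lists were chosen with earlier results of these data known. Named genes were the 10 members, Tfrc, Cdh16, every called regulator, the 4 highest and 4 lowest calls of each other list, and its uncalled genes among the 3 of highest mean CPM. Ephx1, Fech, Hmox1, Ikbkg, the proximal tubule markers, the library checks Xist, Ddx3y and Rn45s, and Txn1 and Sqstm1 (named only for standing in 2 lists) fall outside this rule and were named after their values were seen. Transcript lengths, overlaps and coordinates came from the mm9 annotation, and promoter sequences from RefSeq (GRCm38.p6), whose coordinates are not those of mm9. The other marker lists were podocyte (1 of 5 called higher), endothelium (0 of 5), lymphocyte (3 of 7 higher), collecting duct (0 of 8), distal convoluted tubule (1 of 5 lower), tubular injury (4 of 6 higher), adrenal and fat (0 of 3 tested) and red cell (0 of 1 tested, 4 globin genes listed at 0). Over all genes, 10.6% were called higher and 6.64% lower. With at least 10 counts required in every library, 1 of 3 lymphocyte and 2 of 4 tubular injury markers were called higher. That fit called 1385 of 13815 genes higher and 906 lower. Markers it dropped had fewer than 10 counts in at least 1 library, so their calls are a description and support nothing further.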

Additional observations from a re-analysis of the deposited data

How the results depend on the processing

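Over the 10 members and 16 alternatives, 138 of the log2 fold changes kept their direction and their side of the threshold, 15 lost a call, 4 gained one and 3 changed sign. Those that changed sign were Gsr with scaling by total counts alone (0.05, where the median of all genes moved from 0.02 to 0.29), Nqo1 (from -0.31 to 0.52 over the fits with 1 library left out) and Srxn1 (from -0.04 to 0.22), the latter pair below 0 without knockout 1. The number of members called was 4 with total counts alone (beside 24.0% of all genes) and 0 to 3 with 1 library left out. With no filter on low counts it was 1 (Gclm), beside 2512 of 19758 genes. The number of genes called was 4882 by the DESeq2 Wald test and 0 to 5332 with 1 library left out (0 without any 1 control, 73 without knockout 2, 2 without knockout 3). Scaling by total counts alone called 2985 genes higher and 662 lower, where TMM gave 1604 and 1008. For other NRF2 targets the calls ran from 0 to 15 with 1 library left out. For regulators there were 2 calls with DESeq2 size factors, 2 with total counts alone, 4 by the DESeq2 Wald test, 2 with the newer quasi-likelihood version and 0 to 3 with 1 library left out. For the glutathione and thioredoxin systems there were 16 by the DESeq2 Wald test and 0 to 19 with 1 library left out. A fit with 1 library left out has 2 in that group and fewer residual degrees of freedom.

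The replicate numbers did not pair the libraries: the deviations of same-numbered libraries correlated at -0.13, 0.012 and 0.21. With the replicate block, edgeR called 0 genes, 0 members, 0 other NRF2 targets, 0 regulators and 0 of the glutathione and thioredoxin systems, with 5432 genes and 2 members at an unadjusted p under 0.05. With a covariate made from Xist and 4 Y-linked genes, edgeR also called 0 genes, 0 members, 0 other targets, 0 regulators and 0 of the last list, with 4221 genes and 2 members at an unadjusted p under 0.05. The cause of these losses was not tested, and no other tool was run on these designs. Under the block Nfe2l2 was at 0.59 (edgeR adjusted p = 0.0957) and Gclm at -1.54 (edgeR adjusted p = 0.0752), and under the covariate at 0.53 (edgeR adjusted p = 0.139) and -1.23 (edgeR adjusted p = 0.127). Slc7a11 and Gsta1, with 3 to 11 counts per control library, rest on few counts.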
